A study of Mus musculus with 12 samples.

Results

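The genes described here are the mouse major histocompatibility complex (H2) genes and the genes that supply them with peptide. They were taken from the deposited expression table as every symbol that begins with H2- other than H2-Ke2 and H2-Ke6, together with B2m, Tap1, Tap2, Tapbp, Psmb8, Psmb10, Cd74 and Ciita. That gave 49 of the 33531 genes in the table. Psmb9, which the same definition names, is not analysed here. By role they were 30 class I heavy chain symbols, the light chain B2m, 5 genes of peptide supply and loading, 6 class II symbols counting the invariant chain Cd74, 5 class II peptide editors, the class II regulator Ciita, and H2-Pb, which was placed in no role.

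Expression was measured by RNA sequencing of poly(A)-selected RNA in cells sorted from the dorsal aorta, umbilical and vitelline arteries of 122 mouse embryos at embryonic day 11.5. The embryos had C57BL/6 x 129S1/SVImJ F1 mothers and fathers carrying the Ly6a-GFP transgene, so all 4 groups carried that transgene and had the same mixed B6129S background. Hematopoietic cluster cells (HC) were sorted as CD31+ CD144+ ESAM+ c-Kit+ and endothelial cells (EC) as CD31+ CD144+ ESAM+ c-Kit-. Each type was divided into cells with GFP (GFP+) and without it (GFP-), where GFP reports the activity of the Ly6a promoter and stands for the stem cell antigen Sca-1. The sorts gave 53000 HC GFP+, 413000 HC GFP-, 377000 EC GFP+ and 791000 EC GFP- cells, and each group was pooled into 3 samples with 1 library each.

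Class I molecules are made of a heavy chain and beta-2-microglobulin, and they show peptides from the cytosol to CD8 T cells and to natural killer cells. The peptides are cut by the proteasome, whose catalytic subunits are exchanged for Psmb8, Psmb9 and Psmb10 in the immunoproteasome, and are then carried into the endoplasmic reticulum by the Tap1 and Tap2 transporter. Tapbp (tapasin) holds the empty class I molecule at that transporter. Class II molecules are made mainly by dendritic cells, B cells and macrophages under the control of Ciita, and they load peptides from the endosome after the invariant chain Cd74 is removed with the help of H2-DM. Interferons raise the class I genes and the immunoproteasome in many tissues, and H2-D1 and H2-K1 are the classical heavy chains while H2-Q, H2-T and H2-M genes are mostly nonclassical.

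The promoters of 4 heavy chain genes whose values the results turn on are shown. Those of H2-D1, H2-Q4 and H2-T23 were chosen because these genes were higher with GFP in EC. That of H2-K1 was chosen because the gene was not called there with all 12 libraries in the fit. Each runs 5′ to 3′ on the strand of the gene from 250 bases before to 50 bases after the start, and comes from RefSeq on GRCm38.p6, while the expression values rest on the older build mm9. The positions are chr17:35262844-35263143 on the plus strand, chr17:34000298-34000597 on the minus strand, chr17:35379367-35379666 on the plus strand and chr17:36032652-36032951 on the minus strand. All 4 genes lie in the H2 complex on chromosome 17. Capitals mark exact matches to GGGGATTCC (the kappa B core of the enhancer A element), AGTTTCACT (an interferon response core), TGACG (a cyclic AMP response core, CGTCA on the opposite strand) and CCAAT (the Y box, ATTGG on the opposite strand).
H2-D1: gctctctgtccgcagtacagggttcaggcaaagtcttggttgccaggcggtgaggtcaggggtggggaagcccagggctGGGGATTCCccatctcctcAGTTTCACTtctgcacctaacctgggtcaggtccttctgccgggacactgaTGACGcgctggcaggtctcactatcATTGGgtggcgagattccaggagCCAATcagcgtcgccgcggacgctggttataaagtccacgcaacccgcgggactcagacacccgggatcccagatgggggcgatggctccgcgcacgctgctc
H2-K1: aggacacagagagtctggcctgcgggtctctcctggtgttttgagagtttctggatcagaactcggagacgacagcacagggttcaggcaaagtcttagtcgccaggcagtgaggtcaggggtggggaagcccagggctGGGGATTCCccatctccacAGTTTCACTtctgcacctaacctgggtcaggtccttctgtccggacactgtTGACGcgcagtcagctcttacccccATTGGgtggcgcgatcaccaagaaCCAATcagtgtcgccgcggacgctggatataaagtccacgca
H2-Q4: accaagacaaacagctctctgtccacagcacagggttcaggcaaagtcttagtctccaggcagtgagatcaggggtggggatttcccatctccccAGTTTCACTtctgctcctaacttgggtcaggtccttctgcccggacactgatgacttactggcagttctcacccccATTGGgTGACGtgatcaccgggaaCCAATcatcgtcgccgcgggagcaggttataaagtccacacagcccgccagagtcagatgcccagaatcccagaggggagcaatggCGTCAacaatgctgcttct
H2-T23: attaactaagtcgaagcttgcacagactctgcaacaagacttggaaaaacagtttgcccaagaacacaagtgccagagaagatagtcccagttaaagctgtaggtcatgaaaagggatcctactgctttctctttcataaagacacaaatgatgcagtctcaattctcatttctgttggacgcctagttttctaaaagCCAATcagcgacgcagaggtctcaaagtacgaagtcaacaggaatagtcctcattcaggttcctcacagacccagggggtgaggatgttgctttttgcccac

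H2-D1 and H2-K1 shared the same order of motifs, with GGGGATTCC followed by AGTTTCACT, TGACG and Y boxes in both directions. H2-Q4 had AGTTTCACT and no exact GGGGATTCC, and H2-T23 had a Y box as its only match. Over all 32851 promoters of the same length, both strands searched, GGGGATTCC was found in 0.25%, AGTTTCACT in 0.301%, TGACG in 20.8% and CCAAT in 37.4%. Promoters were available for 35 of the 49 genes. GGGGATTCC was present in H2-D1, H2-K1, H2-Q6 and H2-Q7, and AGTTTCACT in those 4 and in H2-Q4, H2-Q10, H2-T22 and H2-T3. These matches describe the sequence and were not tied to any expression value.

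Levels are given as FPKM, a value scaled for transcript length and library size, and n = 3 libraries a group throughout. Differences are on the log2(FPKM + 1) scale ± SE, on which changes of genes with low FPKM come out too small, and were tested with limma over all 13278 genes that reached FPKM 1 in at least 3 of the 12 libraries. A difference is called higher or lower where its Benjamini-Hochberg adjusted p was under 0.05. FPKM keep no read numbers, so the depth behind a value is unknown. Library totals lay between 555675 and 691948 FPKM. Replicates correlated at 0.956 to 0.979 on the log scale, a figure taken over genes, which do not count as replicates. Of the 49 genes 18 passed the filter on low values, and 9 of those reached FPKM 1 in every library. Of these 18 genes 17 had their highest value in the library HC GFP+ 3, against 16.8% of all tested genes, so values without that library are given beside the main results that use it.

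Reads of class I genes can be shared between paralogs. In the mouse transcripts of GENCODE M21, 10.9% of the 50-base words of H2-D1, 9.63% of those of H2-K1, 16.5% of those of H2-Q4 and 9.69% of those of H2-T23 also occurred in transcripts of another H2 gene. The shares were 34.4% for H2-T22, most of it with H2-T10, and 25.1% for H2-Q7, and only 1.24% and 0.576% for H2-T24 and H2-M3. How the authors' counting divided such reads is not given in the sources used here. Values of single class I genes, H2-T22 and H2-Q7 above all, are uncertain to that extent.

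Class I genes were expressed in all 4 populations, and the class II chains were close to 0 in all of them. B2m had a mean of 224 to 367 FPKM and H2-D1 of 41.9 to 114 FPKM across the groups. The 3 classical class II chains H2-Aa, H2-Ab1 and H2-Eb1 together reached 0.816 to 2.84 FPKM in any library, and Ciita reached no more than 0.0237. H2-D1 and B2m, the genes that mark this set, were therefore present in both cell types and in both GFP classes.

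The summed FPKM of the 30 heavy chain symbols was larger with GFP than without it in HC and in EC. It was 165, 146 and 308 in HC GFP+ libraries 1 to 3, and 101, 76.3 and 85.2 in HC GFP-. In EC it was 170, 171 and 173 with GFP and 87.8, 83.2 and 74.2 without. The GFP+ and GFP- libraries did not overlap in either type, and the 3 EC GFP+ pools lay closer together than the 3 HC GFP+ pools. These sums include symbols that share reads.

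**Figure D1:**
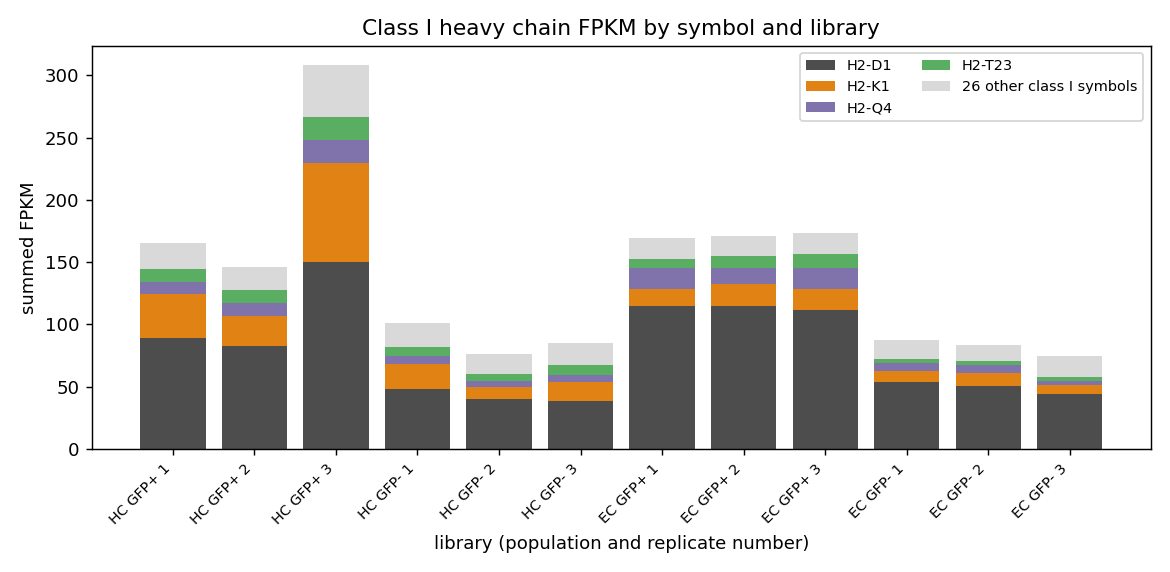
Summed FPKM of the 30 class I heavy chain symbols in each of the 12 libraries, with the parts from H2-D1, H2-K1, H2-Q4, H2-T23 and the other 26 symbols stacked. The GFP+ bars range from 146 to 308 and the GFP- bars from 74.2 to 101, and HC GFP+ 3 is the tallest.

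H2-D1, a classical heavy chain and the most abundant heavy chain in every population, was the gene called for GFP in both cell types. Its FPKM was 89.4, 82.8 and 149.6 in HC GFP+ and 47.7, 39.7 and 38.3 in HC GFP-. In EC it was 114.5, 114.6 and 111.5 with GFP and 53.8, 50.1 and 43.8 without. Every GFP+ library lay above every GFP- library, across both cell types. The mean was 2.56-fold higher with GFP in HC (log2 1.29 ± 0.18, limma adjusted p = 0.00241) and 2.31-fold higher in EC (log2 1.19 ± 0.18, adjusted p = 0.00187). Without HC GFP+ 3 the difference in HC was 1.03 and still passed. In RNA from pooled cells, fewer cells that express a gene and less RNA per cell cannot be told apart.

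H2-K1, the other classical heavy chain measured here, followed a different order. Its FPKM was 34.8, 23.98 and 79.6 in HC GFP+, 20.2, 10.1 and 15.3 in HC GFP-, 14.2, 17.8 and 17.2 in EC GFP+ and 8.57, 10.9 and 7.77 in EC GFP-. GFP+ libraries were above GFP- libraries within each type, but the difference did not pass in HC (1.41 ± 0.36, limma adjusted p = 0.0531) or in EC (0.79 ± 0.36, adjusted p = 0.174). Without HC GFP+ 3 the difference in HC was 0.94. Whether H2-K1 passed for GFP changed with the fit. In EC it passed without HC GFP+ 3 (adjusted p = 0.045) and when only the compared libraries were fitted (0.0277). In HC it passed with libraries scaled to an equal sum (0.0427), with quantile normalization (0.0466) and without HC GFP+ 2 (0.0186). Between the GFP+ populations H2-K1 was higher in HC (1.27 ± 0.36, adjusted p = 0.038). That call ended without HC GFP+ 3 (0.79), without HC GFP+ 1, without any of the 3 EC GFP+ libraries and without either of 2 libraries outside the comparison, HC GFP- 3 and EC GFP- 1.

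The balance of the 2 classical heavy chains separated the libraries by cell type. The ratio of H2-D1 to H2-K1 in FPKM was 2.57, 3.45 and 1.88 in HC GFP+ and 2.36, 3.93 and 2.51 in HC GFP-. It was 8.08, 6.45 and 6.48 in EC GFP+ and 6.28, 4.62 and 5.64 in EC GFP-. All 6 EC libraries were above all 6 HC libraries, and the GFP classes overlapped in HC. H2-D1 made up 53.1% ± 4.18 (SD) of the heavy chain sum in HC GFP+, 48.1% ± 3.58 in HC GFP-, 66.4% ± 1.79 in EC GFP+ and 60.2% ± 1.10 in EC GFP-. H2-K1 made up 21.1% ± 4.70, 17.05% ± 3.49, 9.56% ± 1.07 and 11.1% ± 1.73 in the same order. These ratios and shares are a description and were not tested.

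H2-Q4 and H2-T23 (which encodes Qa-1, the ligand of the natural killer receptor NKG2A) were called for GFP in EC. H2-Q4 was at 16.9, 12.8 and 16.7 FPKM in EC GFP+ and 6.49, 6.37 and 3.17 in EC GFP- (log2 1.41 ± 0.26, limma adjusted p = 0.00531). H2-T23 was at 7.06, 9.81 and 10.7 in EC GFP+ and 3.46, 3.07 and 2.87 in EC GFP- (1.29 ± 0.23, adjusted p = 0.00491). Both genes had no overlap between the EC groups, and each of the 2 calls held when any 1 of the 12 libraries was left out. In HC GFP+ the FPKM was 10.01, 10.1 and 18.4 for H2-Q4 and 10.4, 10.5 and 18.8 for H2-T23. In HC GFP- it was 6.35, 5.05 and 5.82 for H2-Q4 and 7.39, 4.93 and 7.95 for H2-T23. The HC groups did not overlap either, but the differences of 0.99 (adjusted p = 0.0615) and 0.85 (adjusted p = 0.0732) did not pass, and without HC GFP+ 3 they were 0.72 and 0.59.

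The light chain B2m was the most abundant gene of the set and was not called in any comparison with all 12 libraries. It was at 338, 266 and 498 FPKM in HC GFP+, 246, 193 and 259 in HC GFP-, 247, 293 and 260 in EC GFP+ and 213, 219 and 240 in EC GFP-. GFP+ libraries were above GFP- libraries within each type by differences that did not pass, 0.62 in HC (limma adjusted p = 0.109) and 0.25 in EC (adjusted p = 0.438). The difference in HC was 0.38 without HC GFP+ 3, and it was 0.83 and passed without HC GFP+ 2 (adjusted p = 0.0291). Without HC GFP+ 2 B2m also passed between HC GFP+ and EC GFP+ (0.62, adjusted p = 0.0362), where the difference with all libraries was 0.42 (adjusted p = 0.182). The ratio of B2m to the heavy chain sum was 1.83 ± 0.213 (SD) in HC GFP+ and 2.67 ± 0.327 in HC GFP-, and 1.56 ± 0.141 in EC GFP+ and 2.77 ± 0.418 in EC GFP-. Relative to the heavy chains there was thus less B2m RNA in each GFP+ population than in its GFP- counterpart, with no overlap in either type.

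**Figure D2:**
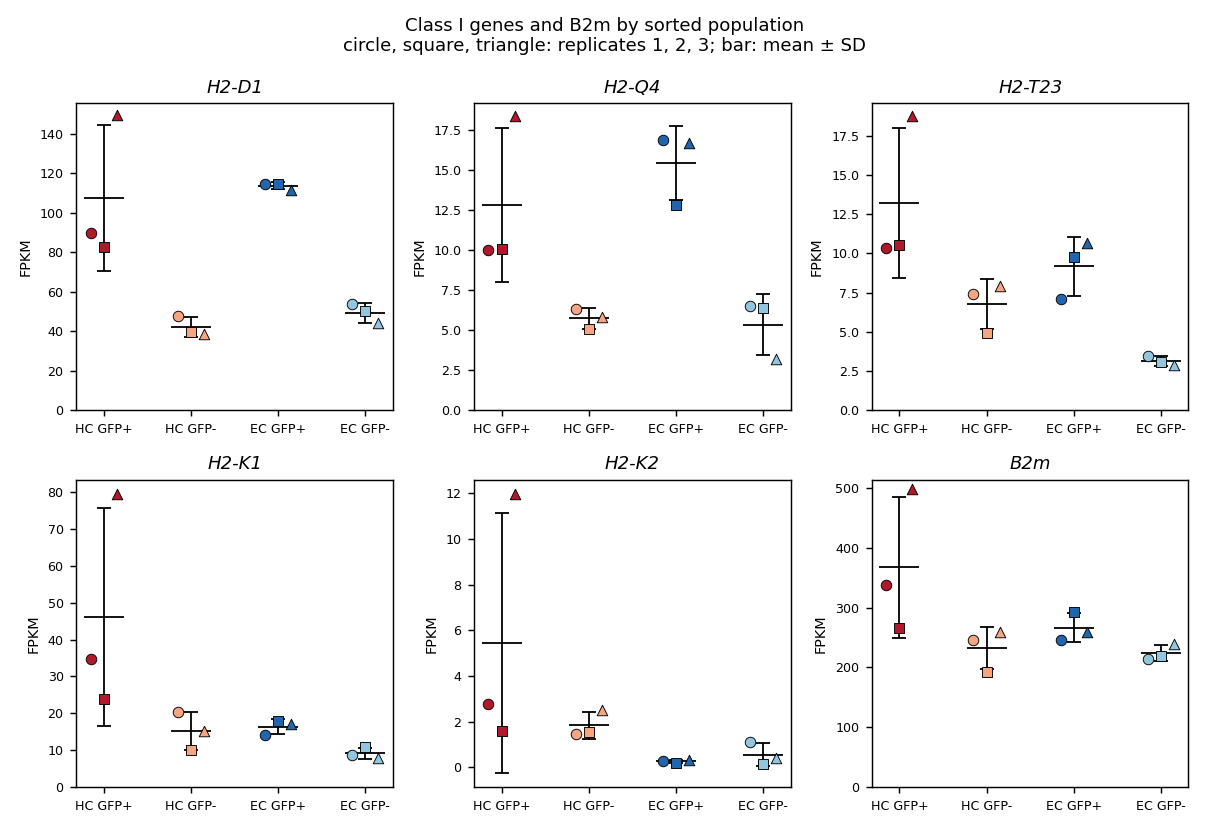
FPKM of 5 class I genes and B2m in each library of the 4 populations, with the mean and SD of 3 libraries. H2-D1 separates by GFP in HC and in EC, H2-Q4 and H2-T23 separate by GFP within each type, and the triangle of HC GFP+ 3 is the highest point in all 6 panels.

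H2-K2, annotated as a transcribed pseudogene in RefSeq, had the largest difference between HC GFP+ and EC GFP+ of the 9 class I symbols tested. It was at 2.76, 1.60 and 11.95 FPKM in HC GFP+ and 1.46, 1.54 and 2.51 in HC GFP-. In EC GFP+ it was at 0.303, 0.206 and 0.307, and in EC GFP- at 1.13, 0.132 and 0.425. It was higher in HC GFP+ than in EC GFP+ (log2 1.98 ± 0.48, limma adjusted p = 0.0179). Without HC GFP+ 3 that difference was 1.30 and still passed, and it did not pass without EC GFP+ 1 or 2. The other heavy chains that passed the filter were H2-T22, H2-T24, H2-M3 and H2-Q7, none of which was called in any comparison, and their group means lay between 0.995 and 10.4 FPKM.

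Of the 30 heavy chain symbols 21 did not pass the filter, and 10 of them were listed at 0 in every library. The highest value among the 21 was 1.02 FPKM, for H2-M5 in EC GFP+ 3. H2-Q6 was at no more than 0.809, H2-Bl at no more than 0.651 and H2-T10 at no more than 0.518.

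Of the 5 genes of peptide supply and loading, Psmb8 and Psmb10 were called for cell type and Tapbp for GFP. Psmb8, which replaces Psmb5 in the immunoproteasome, was at 11.9, 7.31 and 30.3 FPKM in HC GFP+ and 8.23, 2.63 and 7.75 in HC GFP-. In EC GFP+ it was at 1.81, 1.56 and 3.97, and in EC GFP- at 0.274, 0.824 and 0.110. Every HC library of a GFP class was above every EC library of that class. Psmb8 was higher in HC among GFP+ cells (log2 2.18 ± 0.49, limma adjusted p = 0.0128) and among GFP- cells (2.28 ± 0.49, adjusted p = 0.0287), where it was the only one of the 18 tested genes to be called. Without HC GFP+ 3 the difference among GFP+ cells was 1.65 and still passed. The call among GFP+ cells ended without EC GFP+ 2 (2.0). The call among GFP- cells ended without HC GFP- 1 or 3 or EC GFP- 1 or 3, at differences of 2.04 to 2.22. For GFP the Psmb8 difference in EC was 1.26 ± 0.49 and did not pass (limma adjusted p = 0.115), though the groups did not overlap. With a pseudocount of 0.1 it was 2.49 and passed (adjusted p = 0.0316). The EC GFP- values were all below FPKM 1. In HC the GFP groups overlapped and the difference was 1.17 (adjusted p = 0.249), or 0.64 without HC GFP+ 3.

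Psmb10, which replaces Psmb7, was at 19.7, 18.6 and 29.5 FPKM in HC GFP+ and 15.2, 12.1 and 14.96 in HC GFP-. In EC it was at 11.1, 9.74 and 11.1 with GFP and 8.19, 6.26 and 10.5 without. It was higher in HC GFP+ than in EC GFP+ (0.99 ± 0.19, limma adjusted p = 0.00611), a call that held when any 1 library was left out, HC GFP+ 3 (0.79) included. For the GFP- populations a difference of 0.71 missed the threshold (adjusted p = 0.0651), although the groups did not overlap. As a share of the constitutive subunit that it replaces, Psmb8 was at 9.73% ± 6.2 (SD) of Psmb5 in HC GFP+, 3.53% ± 1.88 in HC GFP-, 1.26% ± 0.697 in EC GFP+ and 0.196% ± 0.203 in EC GFP-. Psmb10 was at 11.3% ± 1.18, 6.70% ± 0.961, 5.53% ± 0.806 and 3.64% ± 0.607 of Psmb7 in the same order. The constitutive subunits Psmb1 to Psmb7, a list of 7, gave no call for GFP in either type, none between the GFP+ populations and 1 between the GFP- populations, Psmb1 at -0.39, which ended in 9 of the 12 fits that left out a library (-0.50 to -0.31 over the 12 fits).

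Tapbp was called for GFP in EC. It was at 18.0, 23.4 and 19.9 FPKM in EC GFP+ and 12.6, 11.2 and 13.0 in EC GFP- (log2 0.69 ± 0.20, limma adjusted p = 0.0439), with no overlap. The call rested on the margin of the threshold: it ended in 9 of the 12 fits that left out a library, and the difference over the 12 fits was 0.59 to 0.77. In HC Tapbp was at 19.1, 18.7 and 35.3 with GFP and 17.5, 16.3 and 16.8 without, a difference of 0.45 that did not pass (adjusted p = 0.283) and that was 0.16 without HC GFP+ 3.

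Tap1 was at 3.98, 2.79 and 13.9 FPKM in HC GFP+, 2.69, 2.01 and 3.94 in HC GFP-, 1.35, 2.38 and 2.09 in EC GFP+ and 1.25, 1.2 and 1.71 in EC GFP-. Tap2 had group means of 3.68, 1.88, 1.90 and 1.15 in that order. Both transporter genes were higher in each HC library than in each EC library of the same GFP class, and neither was called in any comparison. H2-K2, Psmb8, Psmb10, Tap1 and Tap2 were the 5 genes with that separation by cell type in both GFP classes, 5 of 18, against 7.1% of all tested genes. H2-K2 reached FPKM 1 in every HC library and in 1 EC library, so it passed the filter through HC. The count of 5 therefore describes the genes measured and supports nothing further. Psmb9, Tap1, Psmb8 and Tap2 lie next to each other in the class II region, between H2-DMb1 and H2-Ob.

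**Figure D3:**
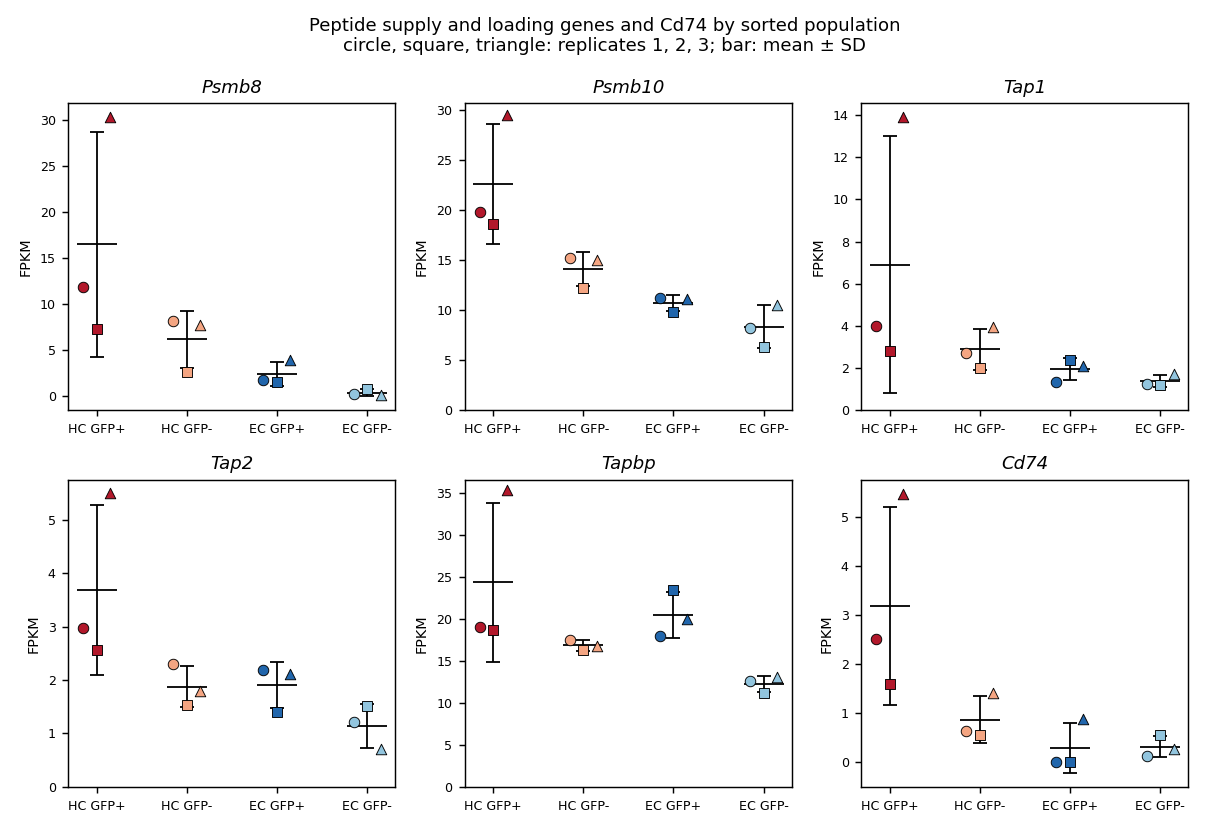
FPKM of 5 genes of peptide supply and loading and of Cd74 in each library of the 4 populations, with the mean and SD of 3 libraries. Psmb8 and Psmb10 lie higher in HC than in EC of the same GFP class, Tapbp separates by GFP in EC, and HC GFP+ 3 is the highest library in every panel.

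Class II genes were near the limit of what the values show. Cd74, the invariant chain, was at 2.52, 1.60 and 5.47 FPKM in HC GFP+ and 0.634, 0.549 and 1.42 in HC GFP-. In EC GFP+ it was listed at 0 in libraries 1 and 2 and was 0.876 in library 3, and in EC GFP- it was 0.129, 0.557 and 0.277. It was higher in HC GFP+ than in EC GFP+ (log2 1.66 ± 0.36, limma adjusted p = 0.0101), also without HC GFP+ 3 (1.29). The difference between HC GFP+ and HC GFP- was 1.09 and did not pass (adjusted p = 0.134), and it was 0.72 without HC GFP+ 3. Cd74 passed the filter on low values through the 3 HC GFP+ libraries and 1 HC GFP- library, so it had to be high in HC GFP+ to be tested at all.

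The class II chains did not follow Cd74. H2-Ab1 was at 0.330, 0.939 and 1.15 FPKM in HC GFP+, 0.633, 1.21 and 0.855 in HC GFP-, 1.18, 1.58 and 1.30 in EC GFP+ and 1.25, 1.09 and 2.14 in EC GFP-. It was the only tested gene of the set with its highest value outside HC GFP+ 3, and the 3 HC GFP+ libraries lay below the 3 EC GFP+ libraries by 0.41, which did not pass (limma adjusted p = 0.277). H2-Eb1 was at 0.717, 0.618 and 0.813 FPKM in HC GFP+, 0.183, 0.626 and 0.219 in HC GFP-, 0.342, 0 and 0.682 in EC GFP+ and 0.619, 1.25 and 0.0395 in EC GFP-. H2-Aa was at 0 to 0.527 over the 12 libraries. H2-Ea-ps was listed at 0 throughout. Summed over H2-Aa, H2-Ab1 and H2-Eb1, the means were 1.81 ± 0.592 (SD) in HC GFP+, 1.35 ± 0.547 in HC GFP-, 1.95 ± 0.293 in EC GFP+ and 2.44 ± 0.434 in EC GFP-.

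Of the peptide editors, H2-DMa was at 1.02, 1.16 and 1.62 FPKM in HC GFP+. It was at 0.412, 0.394 and 0.600 in HC GFP-, 0.222, 0.685 and 0.811 in EC GFP+ and 0.546, 0.138 and 0.515 in EC GFP-, all below the HC GFP+ libraries, and it passed the filter through the HC GFP+ libraries alone. Its difference between HC GFP+ and HC GFP- was 0.62 and did not pass (limma adjusted p = 0.152). H2-DMb1, H2-DMb2, H2-Oa and H2-Ob did not pass the filter. H2-Oa had the highest value of the 31 genes left out by the filter, 1.55 FPKM in HC GFP+ 3, and H2-Pb was listed at 0 in all libraries. In all, 12 of the 49 genes were listed at 0 in every library.

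Between GFP+ and GFP- HC, 1 of the 18 tested genes was called higher, H2-D1, and none lower. Of all tested genes 2.98% were called higher and 1.28% lower in this comparison. The groups did not overlap in 11 of the 18, all of them higher with GFP, against 13% of all genes that were higher in this way. The median difference of the 18 was 0.67, beside 0.00 over all genes, and it was 0.41 without HC GFP+ 3. Without HC GFP+ 2 the count was 3 higher, and without EC GFP- 3 it was 2. Over all genes 566 were called with all libraries, and 461 and 654 in those fits. The 18 include Cd74 and H2-DMa, which the filter kept because they were high in HC GFP+, so these counts and medians describe the genes measured and support nothing further.

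Between GFP+ and GFP- EC, 4 of the 18 were called higher, H2-D1, H2-T23, H2-Q4 and Tapbp, and none lower. The background was 6.96% higher and 6.51% lower. In 9 of the 18 every GFP+ library was above every GFP- library, against 14.8% of all genes. The median was 0.39, beside -0.03 over all genes. Scaling the libraries to an equal sum of FPKM raised the median of all genes in this comparison to 0.14 and turned the split of all called genes from 924 higher and 865 lower to 1917 and 286. With that scaling 6 of the 18 were called higher, and without HC GFP+ 3, which is no part of this comparison but adds to the shared spread, 7 were. Over all genes 1955 were called in the latter fit, against 1789 with all libraries.

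The 2 comparisons by GFP share no library. Both had B2m, H2-D1, H2-K1, H2-Q4, H2-T23, H2-T24 and Tapbp with no overlap and higher with GFP, 7 of 18, against 5.92% of all tested genes. No gene of the set was called in the test of whether the effect of GFP differed between HC and EC, for which the background was 0.188% higher and 0.339% lower in HC. At an unadjusted p under 0.05 there was 1, Cd74 (limma, 1.18, adjusted p = 0.404). The difference of the 2 effects was 0.10 for H2-D1, with a 95% interval from -0.48 to 0.67, and -0.44 for H2-T23, from -1.16 to 0.29. It was -0.43 for H2-Q4, from -1.24 to 0.38. Without HC GFP+ 3 these differences were -0.17 for H2-D1 and -0.70 for both H2-T23 and H2-Q4, none of them called. The calls of H2-T23, H2-Q4 and Tapbp in EC and not in HC are thus not shown to be a difference between the cell types.

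Between HC and EC among GFP+ cells, 5 of the 18 were called higher in HC, Psmb10, Cd74, Psmb8, H2-K2 and H2-K1, and none lower. The background was 8.21% higher and 6.09% lower. Without HC GFP+ 3 the counts were 4 higher and 1 lower: H2-K1 was lost, and H2-D1 was lower in HC by -0.40 (limma adjusted p = 0.0463), whereas with all libraries it differed by -0.13 (adjusted p = 0.693). Without EC GFP+ 1 the count was 3 and without EC GFP+ 2 it was 2, all higher. Over all genes 1898 were called with all libraries. Without HC GFP+ 3, EC GFP+ 1 or EC GFP+ 2 it was 1358, 1261 and 1312. In 8 of the 18 every HC GFP+ library was above every EC GFP+ library, against 19.6% of all genes, and H2-Ab1 lay below, against 13.8%. The median was 0.46, beside 0.05 over all genes, and 0.20 without HC GFP+ 3. Cd74 and H2-K2 reached FPKM 1 in no EC GFP+ library and passed the filter mainly through HC libraries, and H2-DMa passed it through HC GFP+ alone, so the counts and the median describe the genes measured and support nothing further. Among GFP- cells 1 of 18 was called higher in HC, Psmb8, against a background of 2.36%, and none lower, against 1.93%. The HC GFP- libraries were above the EC GFP- libraries without overlap in 9 of the 18, against 13.4% of all genes, and the median was 0.46 beside 0.01. The 9 include H2-K2, which passed the filter mainly through HC libraries, so they support nothing further. The count of 1 called gene was 4 without HC GFP+ 3, 2 without HC GFP- 2, and 0 without HC GFP- 1, HC GFP- 3 or EC GFP- 1. Over all genes 569 were called with all libraries, and 698, 640, 91, 169 and 174 in those fits, in that order.

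**Figure D4:**
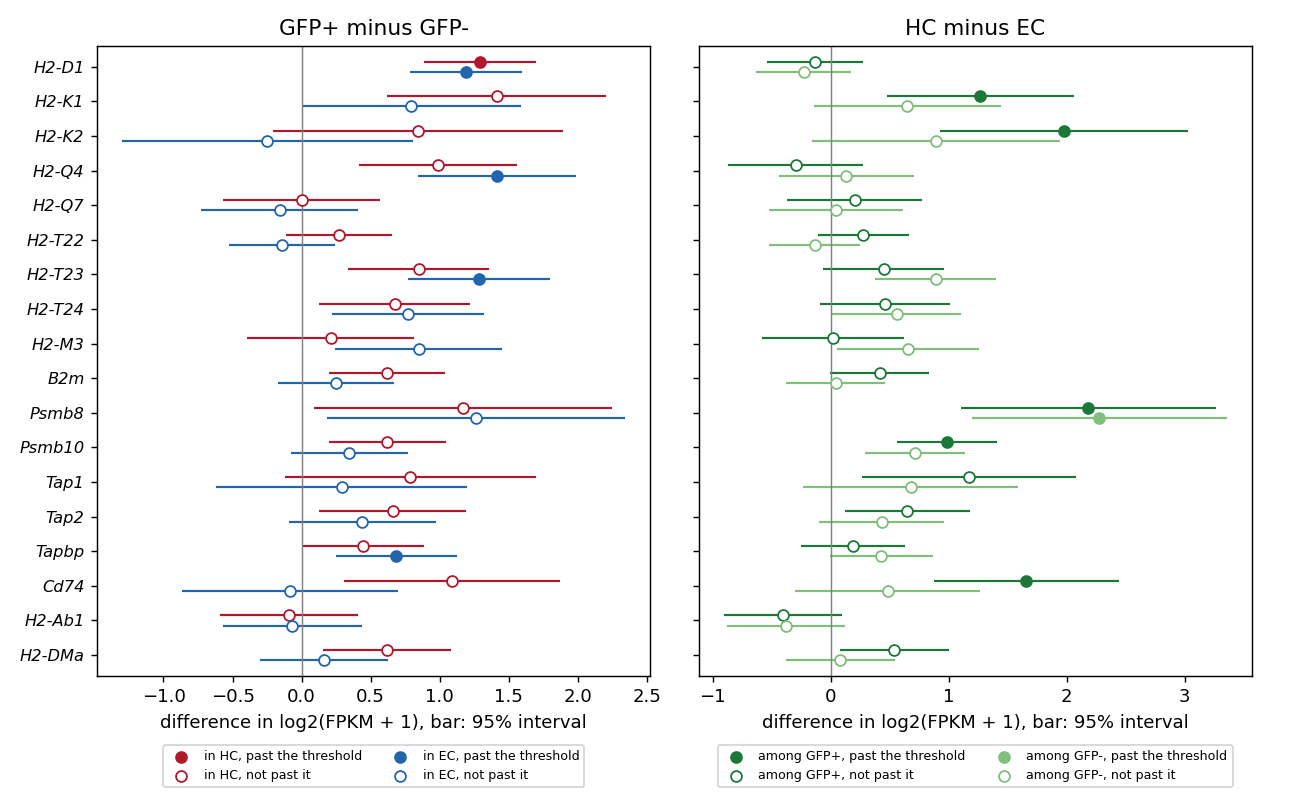
Differences in log2(FPKM + 1) with 95% intervals for the 18 tested genes, GFP+ minus GFP- on the left and HC minus EC on the right; filled points had a limma adjusted p under 0.05. H2-D1 is filled for GFP in HC (1.29) and EC (1.19), and Psmb8 is filled for cell type among GFP+ (2.18) and GFP- cells (2.28). Intervals are not adjusted for the number of genes, so several that exclude 0 belong to open points.

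Some other genes of class I assembly, from a list of 11, were called as well. Erap1, which trims peptides in the endoplasmic reticulum, and Tapbpl, a relative of tapasin that edits peptides, were higher with GFP in both types. Erap1 rose by 0.73 ± 0.15 in HC (limma adjusted p = 0.0201) and by 0.97 ± 0.15 in EC (adjusted p = 0.00194), and Tapbpl by 0.65 ± 0.14 (adjusted p = 0.024) and 0.60 ± 0.14 (adjusted p = 0.0163). The proteasome activator subunit Psme1 was the other gene of the list called in HC (0.45, adjusted p = 0.026), and the translocon subunit Sec61b was lower with GFP in EC (-0.44, adjusted p = 0.0147). The list had 3 of 11 higher with GFP in HC, against 2.98% of all tested genes. In EC it had 2 higher and 1 lower, against 6.96% and 6.51%. Its medians were near 0, at -0.01 and 0.12. Between the GFP+ populations Psme1 (0.67) and Psme2 (1.35) were higher in HC and Hspa5 (-0.49) and Sec61a1 (-0.25) lower, against 8.21% and 6.09%. Between the GFP- populations none of the 11 was called. Canx, Calr, Pdia3 and Lnpep were called in no comparison. In HC the call of Erap1 ended in 5 fits that left out a library (0.61 to 0.76), while in EC it held in all 12. Tapbpl in HC ended in 5 such fits as well (0.59 to 0.70 over the 12), and in EC without EC GFP+ 1 (0.55). Psme1 in HC ended without HC GFP+ 3 (0.35) and without any of the HC GFP- libraries. Sec61b ended without EC GFP+ 1 or 3 or EC GFP- 1 or 3 (-0.42 to -0.38). Psme2 ended without EC GFP+ 1 (1.38) or 2 (1.28), and Sec61a1 without EC GFP+ 3 (-0.24).

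Of 13 regulators of these genes 12 were tested. Irf1, a transcription factor of the interferon response, was called once, higher in HC GFP+ than in EC GFP+ (0.56, limma adjusted p = 0.0359). That is 1 of 12, close to the 8.21% of all tested genes called higher in that comparison. The call was lost in 6 of the 12 fits that left out a library (0.39 to 0.66 over the 12), HC GFP+ 3 (0.39) among them. It was also lost without a filter and with the compared libraries alone. Nlrc5, the transactivator of class I genes, was below the filter: it was at 0.193, 0.319 and 0.801 FPKM in HC GFP+ and at no more than 0.150 in any other library. In the list of 7 interferon receptor and signalling genes, Ifngr1 was higher with GFP in HC (0.55, adjusted p = 0.0135), 1 of 7 against 2.98% of all tested genes. Its call was lost without HC GFP+ 3 (0.49), HC GFP- 2 (0.54) or HC GFP- 3 (0.51). Ifngr2 was lower with GFP in EC (-0.54, adjusted p = 0.0395), 1 of 7 against 6.51% of all tested genes. That call was lost in 7 of the 12 left-out fits (-0.66 to -0.47 over the 12). It was also lost without a filter, at an equal sum (-0.35), with median-ratio scaling, without the intensity trend and with the compared libraries alone. Ifnar2 (0.44) and Ifngr2 (0.56) were higher in HC GFP+ than in EC GFP+, 2 of 7 against 8.21% of all tested genes. Their calls were lost in 4 and 3 of the left-out fits, both of them without HC GFP+ 3 (0.34 and 0.38). The other members of the list were not called in any comparison.

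Some genes of class II processing in the lysosome were higher in HC than in EC. Of a list of 6, Ctss, Ifi30, Lgmn and Ctsb were higher in HC in both GFP classes, Ctss by 4.31 ± 0.65 (limma adjusted p = 0.00154) among GFP+ cells and 3.74 ± 0.65 (adjusted p = 0.0115) among GFP- cells. Of all tested genes 8.21% were called higher in HC among GFP+ cells and 2.36% among GFP- cells. None of the 6 was called for GFP. The calls of Ctss and Ifi30 among GFP+ cells held when any 1 library was left out, and those of Lgmn and Ctsb ended without HC GFP+ 3 (1.36 and 1.02). They also ended without HC GFP+ 1, EC GFP+ 1 or EC GFP+ 3. Among GFP- cells all 4 calls ended without HC GFP- 1 (Ctss 3.48), HC GFP- 3 (3.51) or EC GFP- 1 (3.50). Of the class I-like genes outside the H2 symbols, 6 of 7 tested, Procr was higher with GFP in HC (1.69 ± 0.11, adjusted p = 1.89e-05) and in EC (2.0 ± 0.11, adjusted p = 1.87e-06). That is 1 of 6 in each type, against 2.98% and 6.96% of all tested genes. Procr encodes the endothelial protein C receptor, which has the fold of a class I heavy chain. Fcgrt, the neonatal Fc receptor, was higher in HC among GFP+ (1.48) and GFP- cells (1.99), each 1 of 6, against 8.21% and 2.36%. The former call ended without HC GFP+ 3 (1.07), HC GFP+ 1, EC GFP+ 1 or EC GFP+ 3, and the latter without HC GFP- 1 (1.80) or HC GFP- 3 (1.92).

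Genes of the interferon response, a list of 16 with 14 tested, also had their highest sum in HC GFP+ 3. Their summed FPKM was 164, 142 and 409 in HC GFP+, 105, 89.0 and 117 in HC GFP-, 111, 118 and 156 in EC GFP+ and 79.0, 83.7 and 86.0 in EC GFP-. With GFP, Irf9, Xaf1 and Oasl2 were higher in HC, 3 of 14, and Irf9 in EC (0.60), 1 of 14. Of all tested genes 2.98% and 6.96% were called higher in these comparisons, and 1 of 14 is close to the latter. The differences in HC were 0.76 (limma adjusted p = 0.0117), 1.45 (adjusted p = 0.0218) and 1.69 (adjusted p = 0.044). Oasl2 was lost in 11 of the 12 left-out fits (1.13 to 2.12 over the 12), and Irf9 without HC GFP+ 3 (0.67). Xaf1 passed without HC GFP+ 3 (1.06) and was lost without HC GFP- 1 (1.38) or HC GFP- 2 (1.28), without a filter and with the compared libraries alone. In EC Irf9 was lost without EC GFP+ 3 (0.45) or EC GFP- 3 (0.54) and with the compared libraries alone. Irf9 and Oas1a were higher in HC GFP+ than in EC GFP+, 2 of 14 against 8.21% of all genes, each lost in 4 left-out fits that include HC GFP+ 3 (0.49 and 1.28), and no gene of the list was called among GFP- cells. The part of this response in the class I values was not tested.

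Macrophage genes moved with cell type. All 12 genes of the macrophage list, Csf1r and C1qa among them, were called higher in HC than in EC in both GFP classes, and none of them was called for GFP in HC. Of all tested genes 8.21% were called higher in HC among GFP+ cells and 2.36% among GFP- cells. The summed FPKM of the macrophage list was 775, 284 and 1591 in HC GFP+, 842, 264 and 684 in HC GFP-, 15.9 to 37.5 in EC GFP+ and 13.2 to 19.6 in EC GFP-. Psmb8 in HC GFP+ stood in the same order over the 3 libraries, at 11.9, 7.31 and 30.3. So did H2-K1, Cd74, H2-K2, Psmb10, H2-D1, B2m, Tapbp, Tap1, Tap2, H2-T22, H2-T24 and H2-M3. H2-Q4, H2-T23, H2-Q7, H2-DMa and H2-Ab1 did not. In HC GFP-, where the macrophage sums were 842, 264 and 684, Psmb8, Psmb10, H2-K1, Tapbp, Tap2, H2-T22, H2-T24 and H2-Q4 stood in the order of those sums. H2-D1, B2m, Cd74, H2-K2, Tap1, H2-M3, H2-T23, H2-Q7, H2-DMa and H2-Ab1 did not. These orders were not tested. The part of macrophage RNA in the higher Psmb8, Psmb10, Cd74, H2-K2 and H2-K1 of HC, and in the H2-D1 values, was not tested.

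Markers of other antigen-presenting and lymphoid cells were low. In the dendritic cell list, 4 of 6 were tested and the group sums of 17.03 to 23.7 FPKM were mostly Zbtb46, which stood at 10.8 to 18.3 in every library, EC included. Itgax reached no more than 0.213 and Xcr1 no more than 0.119. Siglech, a gene of plasmacytoid dendritic cells, was the gene of this list called, higher in HC among GFP+ (0.85, limma adjusted p = 0.045) and GFP- cells (1.09, adjusted p = 0.0371). That is 1 of 4 in each comparison, against 8.21% and 2.36% of all tested genes. In the B cell list 1 of 6 was tested, Cd79b, at 3.71 to 13.1 FPKM, while Pax5 reached no more than 0.232. Cd79b was higher in HC GFP+ than in EC GFP+ (0.95, adjusted p = 0.00829). In the T and NK cell list, Cd3e and Ncr1 were listed at 0 in every library, and the sum was 2.34 to 3.40 FPKM in HC GFP+, 0.396 to 0.635 in HC GFP- and no more than 0.264 in EC. Klrb1c, the 1 gene of that list tested, was higher with GFP in HC (1.23, adjusted p = 0.00353) and higher in HC GFP+ than in EC GFP+ (1.54, adjusted p = 0.000461). The part of such cells in the values of the set was not tested. All 6 erythroid genes were lower with GFP in both types, with sums of 775 to 1064 FPKM in HC GFP+ against 5826 to 9031 in HC GFP-, and 874 to 2250 in EC GFP+ against 3144 to 7239 in EC GFP-. Of all tested genes 1.28% were called lower with GFP in HC and 6.51% in EC. The part of the erythroid genes in the FPKM of the class I genes was not tested.

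**Figure D5:**
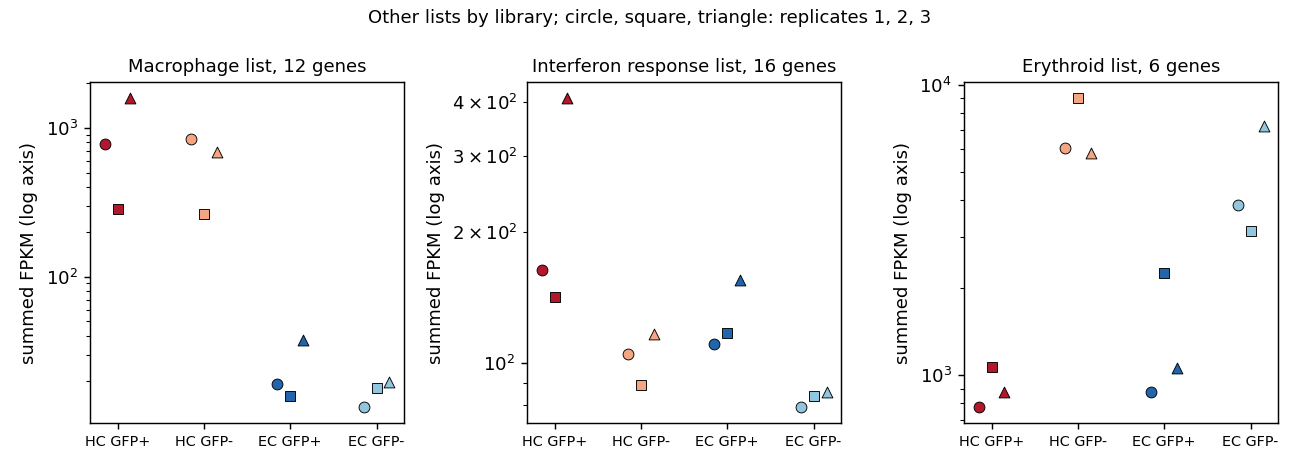
Summed FPKM of the macrophage, interferon response and erythroid lists in each library, on log axes. Macrophage sums separate HC (264 to 1591) from EC (13.2 to 37.5), erythroid sums are lower in the GFP+ libraries of each type, and HC GFP+ 3 has the highest macrophage (1591) and interferon (409) sums.

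The sort markers followed the labelled identities in part. Of a hematopoietic list of 7, 6 were higher in HC GFP+ than in EC GFP+ and 3 in HC GFP- than in EC GFP-, and 5 were higher with GFP in HC and 2 in EC. Of all tested genes 8.21%, 2.36%, 2.98% and 6.96% were called higher in these comparisons, in that order. Ptprc, the leukocyte antigen CD45, was at 2.59 to 13.2 FPKM in HC and at no more than 0.624 in EC, and Kit was at 19.1 to 39.2 in HC and at 12.6 to 18.6 in EC, which were sorted as c-Kit-. Itga2b, which encodes CD41, was the gene of this list never called, with means of 9.08 and 6.80 in HC GFP+ and GFP- and 11.1 and 10.9 in EC GFP+ and GFP-.

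Endothelial genes were also higher with GFP in EC. Of a list of 6, 5 were higher with GFP in EC and none in HC, against 6.96% and 2.98% of all tested genes. The medians of the list were 0.49 and 0.18. The sums were 2250 to 2371 FPKM in EC GFP+, 1376 to 1770 in EC GFP-, 1412 to 1598 in HC GFP+ and 1170 to 1617 in HC GFP-. Cdh5, which encodes CD144, was higher with GFP in EC (0.48, limma adjusted p = 0.0326) and lower in HC GFP+ than in EC GFP+ (-0.64, adjusted p = 0.00776), as were 5 of the 6, and 1 of the 6, Pecam1, was lower in HC GFP- than in EC GFP- (-0.48). Of all tested genes 6.09% were called lower in HC among GFP+ cells and 1.93% among GFP- cells. The part of these endothelial shifts in the class I values was not tested. Mesenchyme and smooth muscle genes, a list of 8 with sums of 187 to 945 FPKM, gave no call in any comparison.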

How the data were processed

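RNA sequencing of 12 libraries, 3 pools in each of 4 sorted populations, was used. The values are FPKM per gene symbol and library as deposited by the authors. The submitters' processing notes name the build mm9 and, with no role for any, the tools DESeq, edgeR, featureCounts and Cufflinks. The aligner, the annotation and the division of reads among paralogs are not stated in them. FPKM do not resolve into whole reads, so no count test was run. Groups and replicate numbers came from the sample titles, and the labels call the pools biologically independent.

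Among 33531 genes 11654 were listed at 0 throughout, and 13278 had FPKM of 1 or more in at least 3 libraries. Their log2(FPKM + 1) was fitted with limma 3.58.1 in R 4.3.3 as 4 group means with 8 residual degrees of freedom, empirical Bayes moderation and an intensity trend. The 5 comparisons were two-sided and were adjusted by Benjamini-Hochberg over all tested genes at a threshold of 0.05. The fit was checked on simulated data. The genes, roles and lists were chosen with earlier results of these data known. Values per library are given for H2-D1, B2m, every gene of the set called at least once and the 4 most abundant genes of each of 3 role groups (class I heavy chains together with B2m, peptide supply and loading, and class II), and at most 4 called genes of any other list are named per comparison. Psmb9 is not analysed here. Alternatives were a pseudocount of 0.1, no filter, a mean FPKM of 5 or more, 3 scalings, no trend, a replicate block, the compared libraries alone and leaving out each library.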

Additional observations from a re-analysis of the deposited data

How the results depend on the processing

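Of the calls within the set, H2-D1 for GFP in HC and in EC passed under every alternative run, and so did H2-Q4 and H2-T23 for GFP in EC and Psmb10 and Cd74 between HC GFP+ and EC GFP+ where the filter kept them. In the main fit Cd74 had to be high in HC GFP+ to be tested, and it reached FPKM 1 in no EC library. Tapbp for GFP in EC did not pass without a filter (adjusted p = 0.0868), with quantile normalization (0.0514) or without the intensity trend (0.0566). H2-K1 between the GFP+ populations did not pass without a filter (0.0783) or with the compared libraries alone (0.0921), nor H2-K2 in the latter (0.0686), nor Psmb8 among GFP- cells without a filter (0.0691). The cause was not tested.

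For GFP in HC the count of 1 became 2 with libraries scaled to an equal sum, with quantile normalization and under the replicate block, and 1 to 3 when a library was left out. For GFP in EC the count of 4 became 7 with a pseudocount of 0.1, and 3 to 7 when a library was left out. Between the GFP+ populations 5 became 3 with the stricter filter, which tested 9 of the genes, and 3 with the compared libraries alone, and 2 to 7 when a library was left out. Between the GFP- populations 1 became 2 with a pseudocount of 0.1, 0 without a filter, 3 at an equal sum and 3 under the replicate block, and 0 to 4 when a library was left out. For the difference of the GFP effects it was 0 under all alternatives; the fit of the compared libraries alone was not run there because it uses all 12. Without a filter the median of the genes for GFP in HC was 0.21 rather than 0.67. Calls over all genes also moved when a library was left out. For GFP they ranged from 321 to 654 in HC and from 1004 to 2203 in EC. Between HC and EC they ranged from 1261 to 2090 among GFP+ cells and from 91 to 698 among GFP- cells.

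Samples with the same replicate number did not deviate together in every pair (correlations -0.084 to 0.27, 4 of 18 over 0.1). For samples with different numbers the correlations were -0.221 to 0.218, with 3 of 36 over 0.1. Whether the numbers mark pairs is not settled by these values. The main fit did not take them as pairs, and the replicate block was an alternative. With the replicate block H2-D1 stayed called in both cell types, and Psmb10 passed for GFP in HC (adjusted p = 0.0269).

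Calls in the lists of cell type markers, Siglech and Cdh5 among them, were not checked by leaving out libraries. Left-out fits were recorded for the called genes of the set, for B2m and for the called genes of the other lists. Among these, signs turned for differences that were not called. They were, for GFP in EC, Cd74 (-0.39 to 0.065) and H2-K2 (-0.45 to 0.0008). Between the GFP+ populations they were H2-D1 (-0.40 to 0.027) and Tapbp (-0.10 to 0.34), and between the GFP- populations B2m (-0.040 to 0.17) and H2-Q4 (-0.15 to 0.28). For the difference of the GFP effects they were Psmb8 (-0.63 to 0.33) and H2-D1 (-0.17 to 0.26), which was -0.059 at an equal sum. Scaling to an equal sum moved the median of all genes from 0.01 to 0.14 between the GFP- populations and from 0.04 to -0.10 for the difference of the GFP effects, and the split of all called genes between the GFP- populations from 313 higher and 256 lower to 562 and 125. Between the GFP+ populations the split of 1090 and 808 became 918 and 955 with median-ratio scaling. Depth is unknown, so differences among genes below FPKM 1 could not be judged.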
